A study of Mus musculus with 12 samples.

Results

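The dual-specificity MAP kinase phosphatases are a family of enzymes, and 10 genes of it, Dusp1, Dusp2, Dusp3, Dusp4, Dusp5, Dusp6, Dusp7, Dusp8, Dusp10 and Dusp16, were followed here by their symbols among the 55335 genes of a read count table. Each symbol stood on a single row of the table. The family was chosen by the liver difference of Dusp1, which had the lowest p-value of any gene between the liver groups in earlier results, so that difference is described below without a test.

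MAP kinases (ERK, JNK and p38) are switched on when an upstream kinase phosphorylates a threonine and a tyrosine in their activation loop, and these phosphatases switch them off by removing both phosphates. Dusp1, Dusp2, Dusp4 and Dusp5 are nuclear enzymes, Dusp6 and Dusp7 are cytoplasmic and act mainly on ERK, and Dusp8, Dusp10 and Dusp16 act mainly on JNK and p38. Dusp3 is a small phosphatase without the kinase-docking domain of the others. Several members, Dusp1 above all, are induced within minutes by growth factors, stress or cAMP and feed back on the kinases that induced them. In macrophages Dusp1 restrains p38 and the cytokine genes downstream of it, and in liver it is known as a regulator of gluconeogenesis and lipid metabolism.

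RNA sequencing covered 12 libraries in 4 groups of 3. All came from male C57BL/6N mice in which the receptor for thyroid-stimulating hormone (TSH) carried loxP sites (Tshr f/f), and Tshr MKO mice also carried Lyz2-Cre, a Cre recombinase driven by the promoter of the myeloid gene Lyz2. Bone marrow-derived macrophages (BMDMs) of mice that the labels give as 6 weeks old were grown for 7 days with 10 ng/mL M-CSF and both genotypes received TSH at 1 ng/mL over 24 h, so no BMDM library without added TSH was analysed here. Livers came from mice put on a high-fat diet at the age of 6 weeks and kept on it for 9 weeks, then fasted for 8 h and given 1.5 U/kg insulin 5 min before collection, again in both genotypes. The methods give 3 mice a group for each tissue, but the labels tie no library to an animal or culture, so each p-value measures the spread between these libraries.

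The libraries held 28962878 to 40954211 counts. Of these the 10 phosphatase genes took 0.0419 to 0.0748% in BMDMs and 0.0178 to 0.0364% in livers. Replicate 3 of the Tshr f/f BMDMs stood apart, with a TMM scaling factor (a correction of the library total for RNA composition) of 0.738 against 0.993 to 1.11 in the other BMDM libraries and the highest family share, and values without it are given below beside those with it. In BMDMs Tshr reached at most 2 counts in a Tshr f/f and 5 in a Tshr MKO library, and it was at 0 in every liver, which is too few to check a genotype. Lyz2, whose promoter drives the Cre, had 228462 to 429799 counts in Tshr f/f and 545044 to 926213 in Tshr MKO BMDMs. In livers it had 818, 2173 and 1348 counts in those labelled Tshr f/f and 56, 4473 and 1236 in those labelled Tshr MKO. In the library at 56 counts the other macrophage markers followed below lay within the range of the other livers. The reason for its low Lyz2 was not tested. The liver labels are uncertain, because receptor levels printed by the study for the same livers stand under the opposite group heading in every column. Liver groups are therefore named by their labels, and every liver direction below follows those labels.

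In BMDMs 8 of the 10 hepatocyte markers were at 0 counts and the list summed to at most 0.107 CPM (counts of a gene relative to the scaled total of its library), and in liver 10 of 10 were above 1 CPM. The 10 macrophage markers summed to 15309 to 17985 CPM in Tshr f/f and 20454 to 30260 CPM in Tshr MKO BMDMs, which did not overlap. This gap rested on Lyz2, and without Lyz2 the other 9 markers summed to 6438 to 9212 and 5917 to 7940 CPM, which overlapped. That sum covers opposite shifts without overlap. Mrc1 was higher in Tshr MKO (247 to 532 against 53.7 to 126 CPM). Adgre1 (1007.5 to 1137.5 against 1161.8 to 1536.4 CPM) and Cd14 (135 to 378 against 387 to 2807.5 CPM) were lower. Among Kupffer cell markers Marco (36.1 to 94.7 against 174 to 421 CPM) and Timd4 (1.12 to 2.48 against 2.89 to 19.0 CPM) were lower. Cd5l (22.7 to 263 against 5.31 to 89.3 CPM) and Folr2 (39.6 to 90.1 against 11.5 to 54.2 CPM) reached higher in Tshr MKO. So did Vsig4 (4.75 to 12.3 against 0.779 to 9.21 CPM), and each of these overlapped between the groups. Clec4f was at 0 counts, and the sum of the Kupffer cell list overlapped (104 to 463 against 240 to 553 CPM). The dendritic cell list was lower in Tshr MKO BMDMs (8.48 to 9.25 against 11.3 to 17.4 CPM) through Ccr7 alone, and without Ccr7 the other 5 markers were higher (5.42 to 6.11 against 4.03 to 5.27 CPM). The cholangiocyte list was higher (832 to 1277 against 227 to 558 CPM), nearly all of it from Spp1, which macrophages also express, and without Spp1 its groups overlapped. These sums without 1 gene were added after seeing the data. The fibroblast list reached 1778 CPM in Tshr f/f replicate 2 against 383 to 743 CPM in the other BMDM libraries. No list separated the liver groups, and the neutrophil list stood at 110 CPM in Tshr f/f replicate 1 against 10.3 to 34.2 CPM in the other livers. The part of these cells in the results below was not tested.

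The bases before the transcription start are shown for the 4 genes whose window held TGACG or its complement CGTCA, the half-site bound by the cAMP-responsive factor CREB, since the TSH receptor signals largely through cAMP. RefSeq (GRCm38.p6) gave a window of 250 bases for 9 of the 10 genes, with none for Dusp4. The sequences below are on the strand of the gene, 5′ to 3′, at chr17:26508520-26508722 (minus strand), chr7:142095285-142095534 (minus), chr19:53528895-53529108 (plus) and chr6:134792629-134792878 (minus). The 47 bases nearest the start of Dusp1 and the 36 of Dusp5 are left off, because an annotated exon covers them. Capitals mark TGACG and CGTCA, the E-box CACGTG and the CArG box, which is the binding sequence of serum response factor.
Dusp1: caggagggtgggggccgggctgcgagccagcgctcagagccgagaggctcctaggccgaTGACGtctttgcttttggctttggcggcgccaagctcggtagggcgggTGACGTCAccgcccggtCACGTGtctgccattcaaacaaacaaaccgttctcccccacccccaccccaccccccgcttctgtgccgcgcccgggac
Dusp8: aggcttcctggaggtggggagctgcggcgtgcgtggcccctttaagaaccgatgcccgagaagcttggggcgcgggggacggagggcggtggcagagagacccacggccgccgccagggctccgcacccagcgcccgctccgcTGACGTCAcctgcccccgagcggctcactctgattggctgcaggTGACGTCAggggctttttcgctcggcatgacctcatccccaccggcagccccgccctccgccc
Dusp5: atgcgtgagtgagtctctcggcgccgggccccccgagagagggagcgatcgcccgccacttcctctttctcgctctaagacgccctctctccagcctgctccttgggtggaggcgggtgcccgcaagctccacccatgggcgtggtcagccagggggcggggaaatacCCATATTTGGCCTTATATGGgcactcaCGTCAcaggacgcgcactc
Dusp16: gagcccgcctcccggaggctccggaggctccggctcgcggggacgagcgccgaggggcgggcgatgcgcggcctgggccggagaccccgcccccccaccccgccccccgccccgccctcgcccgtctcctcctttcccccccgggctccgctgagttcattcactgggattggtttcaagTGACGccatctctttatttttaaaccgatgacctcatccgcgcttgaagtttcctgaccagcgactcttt

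The full palindrome TGACGTCA was found once before Dusp1, at 143 to 136 bases from the start, and at 2 places before Dusp8, the nearer of them at 63 to 56 bases. It was present in 1.55% of 32851 windows of the same length, searched on both strands. Each palindrome also counts as TGACG and as CGTCA, and the half-site in either orientation occurred in 17.8% of windows. Dusp5 held 2 adjoining CArG boxes, a motif found in 1.47% of windows. CACGTG stood before Dusp1 and Dusp2 and in 6.02% of windows, and TATAAA before none of the 9 genes and in 12.4% of windows. The windows of Dusp3, Dusp6, Dusp7 and Dusp10 held none of these motifs. These matches describe letters and are not measured binding sites.

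Levels were first set side by side per length, as CPM per kb of merged exons scaled over all 12 libraries. Dusp1 had the highest mean of the family in 3 of the 4 groups. In livers labelled Tshr f/f it stood at 66.3 ± 8.45 CPM per kb (SD, n = 3), above Dusp6 at 19.0 ± 5.95 and Dusp3 at 18.5 ± 2.99, and the range of Dusp1 did not meet that of Dusp6. In livers labelled Tshr MKO Dusp1 was at 20.0 ± 2.93, Dusp6 at 15.7 ± 4.28 and Dusp3 at 13.8 ± 0.0248 CPM per kb. There the ranges of Dusp1 and Dusp6 overlapped, as did those of Dusp6 and Dusp3. Dusp16 came next in both liver groups (7.55 ± 0.855 and 7.11 ± 0.719 CPM per kb), apart from its neighbours in either direction. The other 6 genes had liver means of 0.450 to 1.53 CPM per kb, and of these neighbours only Dusp4 and Dusp8 in livers labelled Tshr f/f had ranges that did not meet.

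In Tshr f/f BMDMs the order opened with Dusp1 (31.2 ± 19.7 CPM per kb), Dusp3 (19.1 ± 3.13), Dusp16 (16.9 ± 19.9), Dusp5 (12.3 ± 10.8) and Dusp6 (11.4 ± 2.30), and no neighbours among these were apart. In Tshr MKO BMDMs Dusp3 led with 31.8 ± 1.41 and Dusp1 followed with 21.2 ± 9.59 CPM per kb, with overlapping ranges. Dusp6, Dusp7, Dusp4 and Dusp5 lay between 6.28 and 8.29, and Dusp16, Dusp2, Dusp10 and Dusp8 between 0.267 and 1.67 CPM per kb. Dusp8 was the lowest member in both BMDM groups. With the longest transcript as the length in place of merged exons, Dusp16 passed Dusp3 and Dusp6 passed Dusp5 in the mean of Tshr f/f BMDMs. Dusp1 stayed first in that group and in both liver groups. By this length its range in livers labelled Tshr MKO no longer met that of Dusp6 (24.1 to 32.3 against 14.3 to 23.1 CPM per kb).

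**Figure D1:**
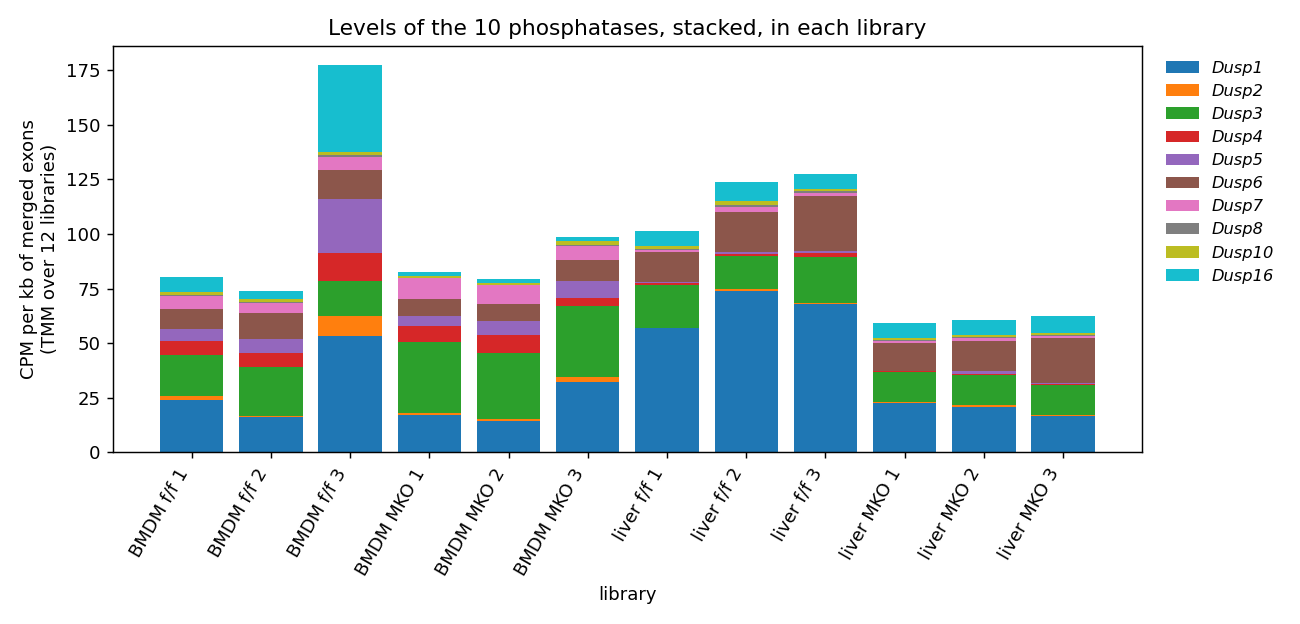
Stacked levels of the 10 phosphatases in each of the 12 libraries, in CPM per kb of merged exons scaled over all libraries. The family sum is 101 to 128 in livers labelled Tshr f/f and 59.0 to 62.6 in livers labelled Tshr MKO, and Tshr f/f BMDM replicate 3 stands highest at 177.

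Summed over the family, the liver libraries labelled Tshr f/f held 101, 124 and 128 CPM per kb and those labelled Tshr MKO 59.0, 60.8 and 62.6. Dusp1 alone made up 53.3 to 59.6% of the sum in the former and 26.9 to 38.3% in the latter. Without Dusp1 the sums were 44.4, 49.9 and 59.7 against 36.4, 40.1 and 45.8 CPM per kb, and the groups overlapped. In BMDMs the sums with Dusp1 were 80.3, 74.1 and 177 in Tshr f/f against 82.5, 79.3 and 98.5 in Tshr MKO, so that only replicate 3 of Tshr f/f lay outside a narrow range. Dusp1 held 18.1 to 32.7% of the BMDM sums.

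The liver comparison asked how loss of the receptor in myeloid cells went with gene expression in the liver of obese mice. Dusp1 (ENSMUSG00000024190, GRCm38 chromosome 17, 26505590 to 26562128, minus strand) measured 142, 179 and 166 CPM in the 3 libraries labelled Tshr f/f, against 54.3, 49.3 and 41.9 CPM in those labelled Tshr MKO. The groups lay far apart, with every library labelled Tshr MKO under 55 CPM. The log2 difference (Tshr MKO minus Tshr f/f) was −1.74 with an SE of 0.14, a level 3.34-fold lower, and it stayed between −1.83 and −1.64 with any library left out. In whole liver, less RNA per cell and fewer cells of a type cannot be told apart. The annotated gene overlaps Ergic1 on the opposite strand, and Ergic1 was at 51.7 to 68.6 and 53.9 to 56.7 CPM, with a log2 difference of −0.10 (SE 0.12) and overlapping groups.

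Among the other nuclear enzymes, Dusp4 (ENSMUSG00000031530, chromosome 8, 34807297 to 34819894) measured 1.86, 1.82 and 4.05 CPM in the libraries labelled Tshr f/f, against 0.782, 1.02 and 0.920 CPM in those labelled Tshr MKO. These groups did not overlap, at 26 to 122 counts per library. The log2 difference was −1.50 (SE 0.40), and −1.02 without Tshr f/f replicate 3, the highest library. Dusp2, best known from activated lymphocytes, had 2, 66 and 25 against 18, 63 and 5 counts, and Dusp5, an ERK phosphatase, 23, 63 and 37 against 26, 84 and 23. Both genes overlapped between the groups and changed sign when single libraries were left out. In the edgeR test Dusp4 had an adjusted p of 0.334, Dusp2 one of 0.956, and Dusp5 one of 0.979.

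Dusp3 (ENSMUSG00000003518, chromosome 11, 101971143 to 101987013) measured 68.4, 52.0 and 71.8 CPM in the libraries labelled Tshr f/f, against 46.7, 46.5 and 48.5 CPM in those labelled Tshr MKO. Its groups did not overlap, and the log2 difference was −0.44 (SE 0.13, adjusted p = 0.349, edgeR). The ERK phosphatase Dusp6 was at 31.8 to 58.4 and 29.0 to 48.5 CPM, and its relative Dusp7 at 2.40 to 5.40 and 2.32 to 3.71 CPM. Of the JNK and p38 phosphatases, Dusp16 was at 40.7 to 48.9 and 36.7 to 46.3, Dusp10 at 1.96 to 4.41 and 1.81 to 2.55, and Dusp8 at 1.86 to 2.84 and 1.07 to 2.41 CPM. All 5 of these genes overlapped between the liver groups. The interval of the Dusp16 difference, −0.39 to 0.20 on the log2 scale (95%), was the narrowest of the family.

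All 10 genes passed the filter on low counts in liver, and all 10 had a log2 difference below 0, as did 50.9% of the 15062 genes tested. Dusp1, Dusp3 and Dusp4 were lower without overlap, against 7.74% of genes tested. The median difference of the 10 was −0.40, against −0.0064 over all genes. Apart from Dusp1, none of the 9 paralogs had an adjusted p under 0.05 in edgeR (0.00% of genes tested did), and 2 had an unadjusted p under 0.05 (10.5% of genes tested did). DESeq2 also called none of the 9, where it called 1.79% of all genes. It gave no adjusted p for Dusp2, and the lowest it gave was 0.0560 for Dusp4. Since Dusp1 was singled out in this contrast, these shares are a description of the family.

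**Figure D2:**
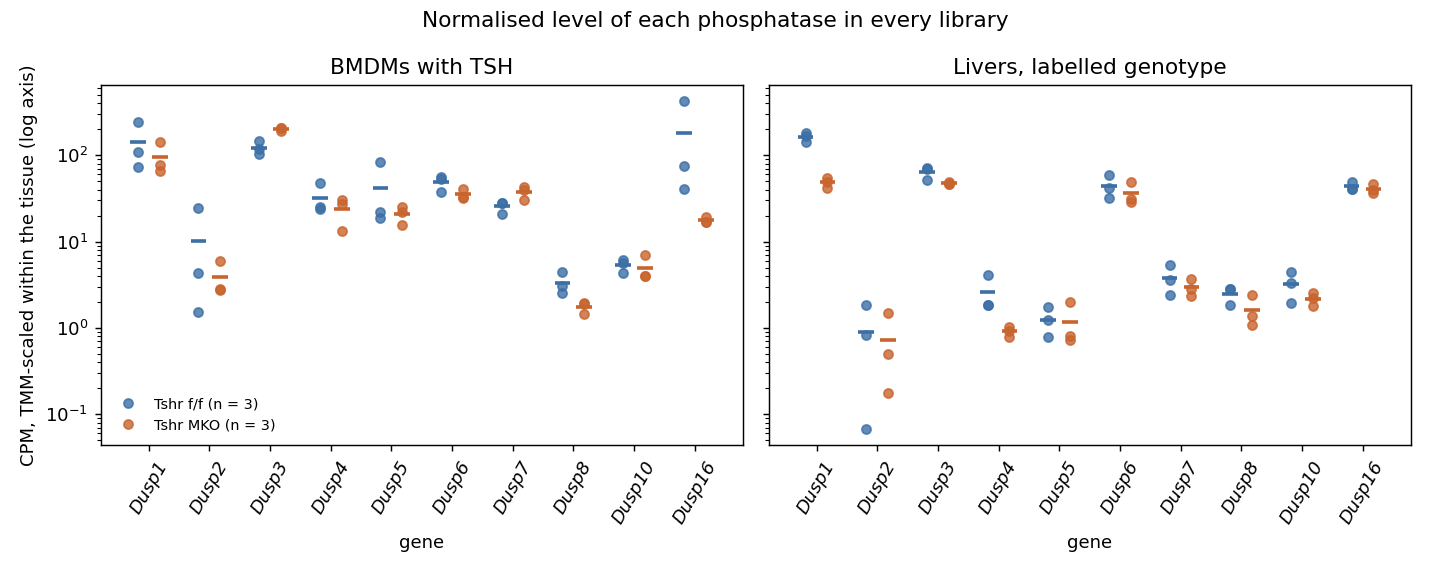
CPM of each gene in every library on a log axis, TMM-scaled within BMDMs (left) and within livers (right), with Tshr f/f in blue and Tshr MKO in orange, and a bar at the mean of 3 libraries. In liver the blue and orange points of Dusp1 are 142 to 179 against 41.9 to 54.3 CPM, and in BMDMs the highest Dusp16 point is Tshr f/f replicate 3 at 421 CPM.

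Ratios of counts within a library, with 0.5 added to each count, need no scaling between libraries, and were used to set Dusp1 against its paralogs. The log2 ratio of Dusp1 to Dusp16 was 1.79, 1.87 and 2.02 in livers labelled Tshr f/f and 0.57, 0.33 and −0.14 in livers labelled Tshr MKO. The ratio to Dusp6 was 2.15, 2.10 and 1.50 against 0.91, 0.67 and −0.21, and that to Dusp3 1.05, 1.78 and 1.21 against 0.22, 0.084 and −0.21. For 7 of the 9 paralogs the ratio was lower in livers labelled Tshr MKO without overlap, and it was Dusp2 and Dusp4 whose ratios overlapped. Each ratio holds the liver counts of Dusp1 by which the family was chosen, and 91.5% of the other genes tested had a Dusp1 ratio that was lower without overlap, so this count only restates the difference in Dusp1. The mean difference over these 7 lay between −1.64 (Dusp16) and −1.06 (Dusp8). Dusp4 itself was lower by a like amount, and its ratio differed by −0.35.

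In BMDMs no paralog had a ratio that was lower in Tshr MKO without overlap (3.81% of the other genes tested did). The ratio of Dusp1 to Dusp16 was higher, at 0.54, 0.85 and −0.81 in Tshr f/f against 2.20, 1.93 and 2.90 in Tshr MKO. The ratio to Dusp3 was −0.13, −0.98 and 1.23 against −1.43, −1.57 and −0.52, and its groups met. Leaving out Tshr f/f replicate 2 gave 2 ratios lower in Tshr MKO without overlap, and leaving out Tshr MKO replicate 3 gave 3. Groups of fewer libraries separate more readily, and the share over all genes in these settings is not given here. These counts can therefore not be set against a background.

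**Figure D3:**
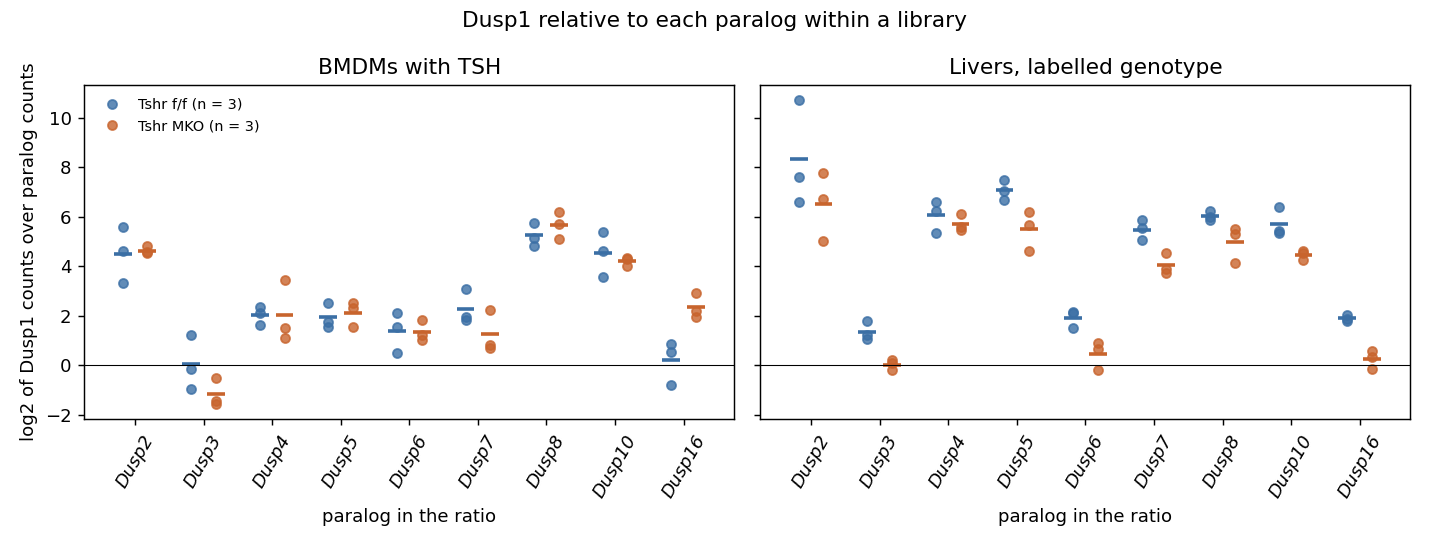
The log2 ratio of Dusp1 counts to those of each paralog in the same library, for BMDMs (left) and livers (right), with Tshr f/f in blue, Tshr MKO in orange and a bar at the mean of 3 libraries. In liver the colours separate for 7 of 9 paralogs, and in BMDMs for Dusp16, in the other direction.

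The BMDM comparison asked how macrophages with and without the receptor differed when both received TSH. Dusp16, a cytoplasmic JNK and p38 phosphatase (ENSMUSG00000030203, chromosome 6, 134715468 to 134792625), showed the widest gap. Its 3 Tshr f/f libraries held 74.1, 40.5 and 421 CPM, and its Tshr MKO libraries 16.7, 17.0 and 19.2 CPM. Each Tshr f/f library lay above each Tshr MKO library, and the Tshr f/f libraries themselves spanned a wide range. The log2 difference was −3.34 (SE 0.90, adjusted p = 0.218, edgeR), and −1.70 (SE 0.26, adjusted p = 0.097) without Tshr f/f replicate 3. DESeq2 gave an adjusted p of 0.00114, and over the alternatives on all 6 libraries the adjusted p ran from 0.00114 to 0.273.

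Dusp3 moved the other way. Its Tshr f/f libraries held 119, 144 and 103 CPM and its Tshr MKO libraries 207, 192 and 205 CPM, with no overlap and little spread in the latter. The log2 difference was 0.73 (SE 0.17, adjusted p = 0.218, edgeR) and 0.62 (adjusted p = 0.139, edgeR) without Tshr f/f replicate 3. DESeq2 gave an adjusted p of 0.00164, and the other alternatives on all 6 libraries reached up to 0.272. The ERK phosphatase Dusp7 was at 28.2, 20.7 and 28.0 against 43.3, 39.7 and 30.1 CPM, higher in Tshr MKO without overlap by a narrow margin (log2 0.55, SE 0.19, adjusted p = 0.247, edgeR, and 0.62 without Tshr f/f replicate 3). Dusp8 was at 3.04, 2.57 and 4.45 against 1.46, 1.89 and 1.93 CPM, lower in Tshr MKO without overlap (log2 −0.92, SE 0.30, adjusted p = 0.236, edgeR, and −0.67 without that library).

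For Dusp1 the Tshr f/f BMDMs held 108, 73.3 and 240 CPM and the Tshr MKO BMDMs 77.1, 64.9 and 143 CPM. Replicate 3 was the highest library of each group, and the groups overlapped. The log2 difference was −0.57 (SE 0.51, adjusted p = 0.560, edgeR), with a 95% interval from −1.79 to 0.66, and 0.059 without Tshr f/f replicate 3. Overlapping Ergic1 was at 53.3 to 68.0 and 60.3 to 99.8 CPM.

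The same library stood apart in the remaining nuclear members. Dusp2 held 4.37, 1.53 and 24.3 CPM in Tshr f/f against 2.74 to 6.02 in Tshr MKO, Dusp5 at 18.8, 22.1 and 82.9 against 15.6 to 25.2, and Dusp4 at 24.9, 23.9 and 47.4 against 13.2 to 30.4 CPM. In each of them replicate 3 of Tshr f/f was far above the other Tshr f/f libraries, which lay near the Tshr MKO range. Without it the log2 differences went from −1.37 to 0.38 (Dusp2), from −0.97 to 0.040 (Dusp5) and from −0.45 to −0.045 (Dusp4). Dusp6 was at 37.5, 52.5 and 56.4 against 32.7, 32.0 and 40.7 CPM (log2 −0.47, SE 0.19, adjusted p = 0.269, edgeR), and Dusp10 at 4.34 to 6.18 against 3.94 to 6.99 CPM (log2 −0.12), both with overlapping groups. Without replicate 3 of Tshr f/f these differences were −0.36 and −0.084.

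Of the 10 genes, all of which passed the filter on low counts, 8 were lower and 2 higher in Tshr MKO BMDMs, where 49.2% of the 15372 genes tested were lower. Without Tshr f/f replicate 3, 5 were lower and 5 higher. With all libraries Dusp8 and Dusp16 were lower without overlap (14.0% of genes tested were) and Dusp3 and Dusp7 higher (14.8% were). No member had an adjusted p under 0.05 in edgeR (0.00% of genes tested did), 5 had an unadjusted p under 0.05 (17.9% of genes tested did), and DESeq2 called 2 (7.96% of genes tested). The median of the 10 differences was −0.52 with all libraries and −0.0029 without Tshr f/f replicate 3, against 0.0083 over all genes with all libraries. With scaling by library totals alone the median over all genes moved to 0.17 and Dusp10 turned from −0.12 to 0.033, while the other 9 kept their sign. Several cell type markers also separated the BMDM groups, among them Lyz2, Mrc1, Adgre1, Cd14, Marco, Timd4, Ccr7 and Spp1. Their part in these differences was not tested.

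**Figure D4:**
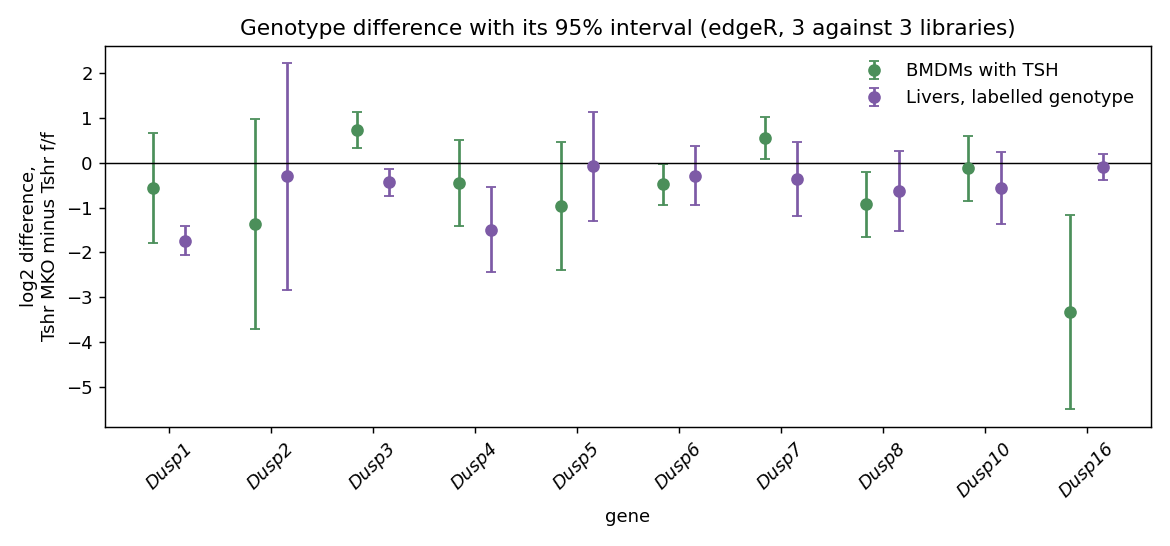
The log2 difference between Tshr MKO and Tshr f/f for each gene, in BMDMs (green) and livers (purple), with the 95% interval from edgeR on 3 against 3 libraries. Dusp1 in liver lies at −1.74 with an interval of −2.07 to −1.41, and Dusp3 is at 0.73 in BMDMs and −0.44 in liver.

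Dusp3 was thus higher in Tshr MKO BMDMs and lower in livers labelled Tshr MKO, without overlap in either. Of the 13244 genes tested in both tissues 2.60% separated in both with opposite directions. The genotype difference in BMDMs minus that in liver was 1.16 for Dusp3 (SE 0.21, adjusted p = 0.121, edgeR over 17246 genes, of which 0.00580% were called). The adjusted p of Dusp3 was 3.80e-05 by DESeq2, which called 4.49% of these genes. By edgeR without Tshr f/f BMDM replicate 2 it was 0.0203, a setting in which 341 of 17699 genes were called. Over the alternatives on all libraries it ran from 3.80e-05 to 0.228, and it reached 0.284 with single libraries left out. The difference was 1.06 (adjusted p = 0.0713, edgeR) without Tshr f/f BMDM replicate 3. For Dusp16 the same quantity was −3.25 (SE 0.94, adjusted p = 0.204, edgeR). Its adjusted p ran from 0.0174 by DESeq2 up to 0.289 over the alternatives on all libraries. In edgeR with single libraries left out it ran from 0.0343 to 0.411. Without Tshr f/f BMDM replicate 3 the Dusp16 difference was −1.59 (adjusted p = 0.0764, edgeR). Dusp1 differed by 1.17 (SE 0.58), given without a test. The other 7 members had adjusted p-values of 0.344 to 0.889 in edgeR, and none of the 10 but Dusp3 separated in both tissues with opposite directions.

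BMDMs were then set against livers of the same genotype, a comparison in which cell type, culture, TSH, diet, insulin and age cannot be told apart. Dusp5, at 5.61, 6.48 and 24.7 CPM per kb in the Tshr f/f BMDMs against 0.420, 0.958 and 0.675 in the livers of that label, had the largest gap of the family, a log2 difference of 4.15 (SE 0.66, adjusted p = 0.000235, edgeR). Without Tshr f/f BMDM replicate 3, by far its highest library, the difference of Dusp5 was 3.16 (adjusted p = 0.000175, edgeR). Dusp4 differed by 2.76 (SE 0.43, adjusted p = 0.000197, edgeR) and Dusp7 by 1.87 (SE 0.30, adjusted p = 0.000238, edgeR), both higher in BMDMs, and by 2.38 and 1.82 without that library. Between the Tshr MKO groups these 3 genes were again higher in BMDMs, Dusp4 by 3.80, Dusp5 by 3.24 and Dusp7 by 2.78 on the log2 scale, with adjusted p-values of 3.15e-05, 0.00103 and 1.61e-05 in edgeR. There Dusp3 was also higher in BMDMs, at 32.6, 30.2 and 32.6 against 13.7, 13.8 and 13.8 CPM per kb, by 1.21 on the log2 scale (SE 0.15, adjusted p = 3.83e-05, edgeR). Between the Tshr f/f groups Dusp3 differed by 0.044 (SE 0.15).

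Lower in BMDMs was Dusp6 (−0.74, SE 0.26, adjusted p = 0.0268, edgeR) between the Tshr f/f groups. Dusp1, whose liver counts chose the family, differed there by −1.09 (SE 0.42), and by −1.70 without Tshr f/f BMDM replicate 3, given without a test. Between the Tshr MKO groups Dusp6 (−0.92, SE 0.26, adjusted p = 0.00928, edgeR) and Dusp16 (−2.09, SE 0.67, adjusted p = 0.0175, edgeR) were lower in BMDMs, and Dusp1 differed by 0.084 (SE 0.41), again untested. These lower calls rest on the scaling, because library totals alone moved the median of all genes to 0.79 (Tshr f/f) and 0.90 (Tshr MKO), from −0.035 and −0.072. On that scale Dusp1 was at −0.41 and Dusp6 at 0.052 between the Tshr f/f groups, and Dusp6 at 0.045 and Dusp16 at −1.12 (adjusted p = 0.082, edgeR) between the Tshr MKO groups. Relative to the shifted medians the 4 values were −1.19, −0.73, −0.85 and −2.02. The calls of Dusp3, Dusp4, Dusp5 and Dusp7 as higher in BMDMs held on both scales.

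The call on Dusp6 between the Tshr f/f groups was also lost without Tshr f/f BMDM replicate 1 or Tshr f/f liver replicate 3, and that on Dusp16 between the Tshr MKO groups without Tshr MKO BMDM replicate 1 or 2. Dusp2, higher in Tshr f/f BMDMs by 2.56 (SE 1.16, adjusted p = 0.0696, edgeR), passed without Tshr f/f BMDM replicate 2 or Tshr f/f liver replicate 2, and it was at 0.82 (adjusted p = 0.502, edgeR) without Tshr f/f BMDM replicate 3. Dusp16 between the Tshr f/f groups passed without Tshr f/f BMDM replicate 2, and Dusp8 between the Tshr MKO groups without Tshr MKO liver replicate 2. In all, 4 of the 9 paralogs passed between the Tshr f/f groups, 3 of them higher and 1 lower in BMDMs, where 69.3% of the 17246 genes tested did (32.7% higher and 36.6% lower). Between the Tshr MKO groups 6 of the 9 passed, 4 higher and 2 lower, where 68.5% of genes did (31.8% higher and 36.8% lower). Calls over all genes split with 47.2% and 46.3% higher in BMDMs, and with library totals alone 68.8% and 71.1%.

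**Figure D5:**
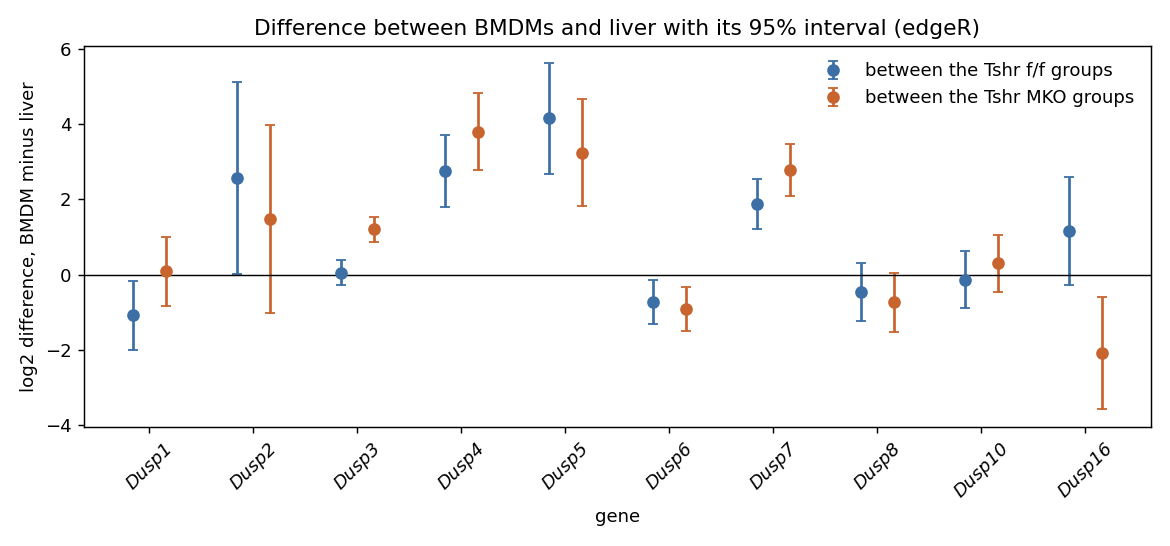
The log2 difference between BMDMs and livers for each gene, between the Tshr f/f groups (blue) and the Tshr MKO groups (orange), with the 95% interval from edgeR on all 12 libraries. Dusp4, Dusp5 and Dusp7 lie at 1.87 or above in both, and Dusp16 differs most between the colours.

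Genes around the phosphatases were followed in 5 lists of the pathway, and none of the 95 list genes tested in BMDMs or the 88 in liver had an adjusted p under 0.05 in edgeR. At an unadjusted p under 0.05 there were 19 in BMDMs and 11 in liver, where 17.9% and 10.5% of all genes tested were. DESeq2 called 11 and 4, where it called 7.96% and 1.79% of all genes. Of the MAP kinase cascade, the kinases that the phosphatases act on and those above and below them, 40 genes were tested in BMDMs and 39 in liver. Their median log2 difference was −0.033 in BMDMs and −0.056 in liver, against 0.0083 and −0.0064 over all genes. The p38 kinase gene Mapk11 was lowest in BMDMs, at 4.52, 3.02 and 5.41 against 1.75, 2.16 and 0.940 CPM (log2 −1.41, SE 0.40), and the JNK gene Mapk10 highest at 1.81 (SE 0.83), under 2 CPM in every library. In liver the extremes were the p38 genes Mapk13 (−1.01, SE 0.94) and Mapk12 (0.89, SE 0.40).

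Immediate-early genes, which are transcribed within minutes of a stimulus, stood out in liver by their counts. Of 18 tested 14 were lower in livers labelled Tshr MKO, 7 of them and none of the higher ones had an unadjusted p under 0.05, where 5.18% of genes tested were lower at that p, and 6 were lower without overlap. Over all genes tested 50.9% were lower, and 7.74% without overlap. The list was chosen with earlier results of these data known, so these shares are a description of it. The median of the list was −0.38. Nr4a1, a nuclear receptor gene induced by cAMP, was lowest at 30.6, 28.3 and 48.5 against 5.17, 14.0 and 3.61 CPM, a log2 difference of −2.23 (SE 0.52, adjusted p = 0.334, edgeR), and Fosb was highest at 1.21 (SE 0.72). In BMDMs 14 of 21 of this list were lower, with a median of −0.26 that became −0.066 without Tshr f/f replicate 3, where 49.2% of all genes were lower and their median was 0.0083. There Fosl1, an AP-1 subunit, was lowest at 4.07, 5.84 and 54.3 against 1.88, 1.89 and 3.66 CPM (−3.10, SE 1.07), and Egr3 highest at 1.40 (SE 0.84), with 30.4 CPM in Tshr MKO replicate 3 against 3.49 to 7.05 CPM elsewhere.

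Of the inhibitors that feed back on ERK, 12 were tested in each tissue, with medians of −0.36 in BMDMs and −0.092 in liver. The Sprouty gene Spry1 was lowest in BMDMs (−2.65, SE 1.26), with 16.9 CPM in Tshr f/f replicate 3 and 0.435 to 1.88 CPM in the other 5 libraries, and Spry4 highest (0.72, SE 0.55). In liver Rasa2 was lowest (−0.67, SE 0.37) and Lrig1 highest (0.25, SE 0.19). Other dual-specificity phosphatases had medians of 0.30 over 14 genes in BMDMs and 0.059 over 10 in liver. Dusp22 was highest in BMDMs at 14.3, 9.23 and 5.72 against 20.8, 23.6 and 20.0 CPM (1.13, SE 0.33), and Dusp28 lowest (−0.79, SE 0.22). In liver Styx, a phosphatase-like protein without catalytic activity, was highest (0.36, SE 0.15) and the slingshot phosphatase Ssh1 lowest (−0.29, SE 0.15).

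The cAMP and CREB target genes had medians of −0.25 over 10 genes in BMDMs and −0.12 over 11 in liver. The BMDM median ran from −1.33 to 0.14 as single libraries were left out, the ends being reached without Tshr MKO replicates 3 and 2. Pde4b, a phosphodiesterase that degrades cAMP, was lowest in BMDMs at 221, 202 and 737 against 34.8, 28.1 and 141 CPM, a log2 difference of −2.51 (SE 0.83, adjusted p = 0.237, edgeR), and its groups did not overlap. Fosb was highest there (1.14, SE 0.70), and Nr4a1 and Fosb were again the extremes in liver. By DESeq2 the 4 genes called in liver were Egr1, Ier2, Nr4a1 and Sik1, all lower in livers labelled Tshr MKO and chosen for naming after their values were seen. Of the 11 list genes that DESeq2 called in BMDMs, 6 were lower in Tshr MKO, namely Map2k1, Mapk11, Rps6ka4, Spred1, Dusp28 and Pde4b. The others, Map3k1, Mapk3, Sh2b3, Dusp22 and Jun, were higher.

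The genes whose pattern over the 12 libraries was most like that of Dusp1 included Klf3, Synpo, Fzd5 and Bcorl1, by the root-mean-square difference of centred log2(CPM + 1), which was 0.506 to 0.528 for them among 10797 genes compared. In livers labelled Tshr MKO their log2 differences were −0.79 (Klf3), −1.32 (Synpo), −0.90 (Fzd5) and −0.74 (Bcorl1), smaller than that of Dusp1. In BMDMs all 4 overlapped between the groups, as Dusp1 did. The choice by likeness over the same 12 libraries favours such values, so they are a description only. The nearest paralog was Dusp6 at rank 178 with 0.695, followed by Dusp3 (1.03) and Dusp16 (1.03). Dusp4, Dusp5 and Dusp7, at 1.59 to 1.92, were farther away, and Dusp2, Dusp8 and Dusp10 were below the mean of 5 CPM needed for this comparison.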

How the data were processed

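Per the file headers and the study's methods, the deposited values are raw counts of reads per gene for 12 strand-specific libraries read on a NovaSeq, with Skewer and FastQC 0.11.2 used on the reads. The submitters' processing notes also name STAR, StringTie and mm10. The counting program and its strand setting are not given in the sources used here, so reads of overlapping genes may not be separable. The authors' test, the MARS model of DEGseq, was replaced by one that estimates the spread between replicates.

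Groups and replicate numbers came from the sample titles. Counts were tested with edgeR 4.0.16 (filterByExpr, TMM, robust quasi-likelihood, R 4.3.3), separately for 6 BMDM and 6 liver libraries and over 12 libraries for tissue and genotype by tissue, with Benjamini-Hochberg adjustment over all genes of a fit and a threshold of 0.05. "Without overlap" means that all 3 CPM values of a group lay above all 3 of the other. An exact permutation test of 3 against 3 cannot go below 0.1 and was not used. Alternatives were RLE factors, library totals alone, DESeq2 1.42.0, no low-count filter, a stricter filter at a mean of 50 counts, replicate number as a block, all 12 libraries, an unadjusted p under 0.05 with a fold of at least 2, and each library left out. Annotation and lengths were from GENCODE M21 (GRCm38), where 55154 of 55335 genes matched. The scripts were tested on simulated counts.

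The 10 genes, the lists and the tests were chosen with earlier results of these data known. Named besides the 10 genes were the lowest and highest gene of each pathway list, the 5 genes most like Dusp1, of which 1 is not reported here, and Tshr and Lyz2 as checks. Ergic1, which overlaps Dusp1, and Spp1, Ccr7, Mrc1, Adgre1, Cd14, Marco, Timd4, Cd5l, Folr2, Vsig4, Clec4f, Egr1, Ier2 and Sik1 were named after their values were seen. So were Map2k1, Rps6ka4, Spred1, Jun, Map3k1, Mapk3 and Sh2b3. Intervals are 95% and cover the spread between libraries. Tables and plots used python 3.11.15, pandas 2.3.3 and matplotlib 3.10.9.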

Additional observations from a re-analysis of the deposited data

Results flagged for a closer look

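Dusp3 stood out because the genotype groups separated in opposite directions in BMDMs and in liver. The genotype difference in BMDMs minus that in liver was 1.163 on the log2 scale, with an adjusted p of 0.121 in edgeR and 3.80e-05 in DESeq2. With single libraries left out the adjusted p in edgeR ran from 0.0203 to 0.284. The lowest was without Tshr f/f BMDM replicate 2, where 341 of 17699 genes were called, against 1 of 17246 with all libraries. The direction of the Dusp3 difference depends on the liver labels, whose reversal would leave Dusp3 higher in Tshr MKO in both tissues.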

How the results depend on the processing

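Members with an adjusted p under 0.05 numbered 2 of 10 by DESeq2 between the BMDM genotypes and 2 for genotype by tissue, against 0 by edgeR. For genotype by tissue leaving out single libraries gave 0 to 2. Over all genes edgeR then called 0 to 341, against 1 with all libraries. The study's cut-offs (unadjusted p under 0.05, fold of at least 2), applied here to edgeR p-values, passed 1 member in BMDMs (Dusp16). In liver 1 of the 9 paralogs (Dusp4) passed, with Dusp1 left out as untested. The share of all genes that passed both cut-offs is not given here. Over all genes DESeq2 called 1223 in BMDMs and 269 in liver, against 0 and 0 by edgeR, and edgeR on all 12 libraries called 150 in BMDMs. Between BMDMs and livers of Tshr f/f, 3 of the 9 paralogs passed with no filter on low counts and 3 to 6 with single libraries left out, against 4. Over all genes 12034 of 27839 passed with no filter, and 11224 to 11994 with single libraries left out, against 11944. With library totals alone 6 of the 9 paralogs passed, where Dusp2, Dusp3 and Dusp16 were added and Dusp6 was lost. DESeq2 called 5, with Dusp2 added. Of all 17246 genes, library totals alone passed 12468 and DESeq2 12467. BMDM ratios of Dusp1 lower in Tshr MKO without overlap numbered 0 to 3 with libraries left out, given without the share over all genes.

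Differences of small size changed sign. With library totals alone Dusp10 was 0.033 between BMDM genotypes, and Dusp6, Dusp8 and Dusp10 were 0.052, 0.28 and 0.69 between tissues in Tshr f/f, and Dusp6 and Dusp8 0.045 and 0.22 in Tshr MKO. With a mean of at least 50 counts Dusp3 was −0.0036 between tissues in Tshr f/f. With libraries left out, the BMDM genotype difference ran from −0.98 to 0.059 (Dusp1), −1.88 to 0.38 (Dusp2), −1.29 to 0.040 (Dusp5) and −0.45 to 0.020 (Dusp10), and that in liver from −1.41 to 0.71 (Dusp2) and −0.71 to 0.24 (Dusp5). Between tissues in Tshr f/f the range was −0.083 to 0.18 (Dusp3), −0.39 to 0.17 (Dusp10) and −0.46 to 1.63 (Dusp16), and in Tshr MKO −0.34 to 0.31 (Dusp1) and −0.037 to 0.45 (Dusp10). Genotype by tissue ran from −2.11 to 0.70 (Dusp2), −1.26 to 0.11 (Dusp5), −0.44 to 0.064 (Dusp6) and −0.49 to 0.093 (Dusp8). The cause of these shifts was not tested.

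With the replicate block, Dusp1 between tissues in Tshr MKO turned from 0.084 to −0.044. Same-numbered libraries of the 2 genotypes correlated by 0.036 to 0.15 in BMDMs and −0.075 to 0.25 in liver. Differently numbered ones correlated by −0.21 to 0.16 and −0.36 to 0.37. These few correlations cannot settle whether the shared replicate numbers pair the samples. The block called 0 members in each genotype comparison and changed no other call of a member. Of the values for single members under an alternative, 742 kept their direction and side of the threshold, 32 changed sign, 15 newly passed the threshold, 6 no longer passed it and 3 untested ones moved by more than their error. Depth was most limiting in liver for Dusp2 (2 to 66 counts), Dusp5 (23 to 84) and Dusp4 (26 to 122), and in either tissue for Dusp8 and Dusp10 (45 to 290).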
